A study of Mus musculus with 6 samples.

Results

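The Zbtb genes encode transcription factors with a BTB domain, through which they pair and recruit corepressors, and C2H2 zinc fingers, which contact DNA. They were taken here as every protein-coding mouse gene whose symbol is Zbtb followed by a digit, with 1 gene of that pattern not analysed here. This gave 40 of 21887 protein-coding genes, on 14 chromosomes. By its product, 1 of the 40 does not match the family's name: Zbtb8os, on the strand opposite Zbtb8a, encodes archease, a cofactor of tRNA ligation. No peak was given to it, so the numbers of members with a peak given to them are the same without it.

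COUP-TFII, the orphan nuclear receptor encoded by Nr2f2, was mapped by chromatin immunoprecipitation and sequencing (ChIP-seq) in mesonephroi of CD-1 mouse embryos at E14.5. The mesonephros lies beside the fetal gonad and holds the Wolffian and Müllerian ducts in a mesenchyme rich in this receptor. The 6 samples were 2 of COUP-TFII ChIP from XX mesonephroi, 2 of COUP-TFII ChIP from XY mesonephroi and 2 of input chromatin from XX and XY mesonephroi together, each from a pool of mesonephroi, so that the receptor's sites in ducts and in mesenchyme cannot be told apart. The labels name no treatment and no altered allele for any group.

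The data are the authors' 2 peak lists, 1 for XX with 11175 peaks and 1 for XY with 9846, of which 7483 were shared, meaning that an XX and an XY peak had at least 1 bp in common. Both lists give mm10 positions of intervals of 300 bp, without heights or p-values, and the depth behind them is unknown. Each list stands for both replicates of a sex, so no count below has a spread between replicates, no test between the sexes was possible, and a peak missing from 1 list may have been absent or below the caller's threshold. Intervals are exact (Clopper-Pearson) 95% intervals and cover counting error only.

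Many BTB zinc finger proteins are repressors. Their BTB domain is known to bind the corepressors NCoR, SMRT or BCOR and the ubiquitin ligase scaffold Cul3, and nuclear receptors such as COUP-TFII call on some of the same corepressors. Family members are best known from blood cells, where they fix lineage choices, and from methylated DNA, which Kaiso (Zbtb33) and its relatives Zbtb4 and Zbtb38 can bind.

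The positions that carry the main pattern are starts of Zbtb genes under a peak found in both sexes. The 5 promoters printed are those in which the centre of a shared XX peak fell between 250 bases before and 50 bases after a start listed by RefSeq (GRCm38.p6, the assembly of mm10). Each runs 5′ to 3′ in the gene's direction, and capitals mark the bases covered by the XX and the XY peak alike. The windows are chr9:96719396-96719695 (minus strand) for Zbtb38, chrX:38189543-38189842 (plus) for Zbtb33, chr4:141444434-141444733 (plus) for Zbtb17, chr4:45012363-45012662 (minus) for Zbtb5 and chr2:37443123-37443422 (minus) for Zbtb26.
Zbtb38: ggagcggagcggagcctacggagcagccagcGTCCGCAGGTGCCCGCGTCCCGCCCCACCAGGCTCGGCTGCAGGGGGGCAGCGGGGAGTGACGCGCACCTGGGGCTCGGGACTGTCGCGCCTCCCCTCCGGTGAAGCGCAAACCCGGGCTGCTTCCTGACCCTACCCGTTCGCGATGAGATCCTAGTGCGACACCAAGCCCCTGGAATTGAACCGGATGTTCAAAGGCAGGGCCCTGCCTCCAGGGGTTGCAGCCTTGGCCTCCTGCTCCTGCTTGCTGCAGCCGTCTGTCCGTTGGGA
Zbtb33: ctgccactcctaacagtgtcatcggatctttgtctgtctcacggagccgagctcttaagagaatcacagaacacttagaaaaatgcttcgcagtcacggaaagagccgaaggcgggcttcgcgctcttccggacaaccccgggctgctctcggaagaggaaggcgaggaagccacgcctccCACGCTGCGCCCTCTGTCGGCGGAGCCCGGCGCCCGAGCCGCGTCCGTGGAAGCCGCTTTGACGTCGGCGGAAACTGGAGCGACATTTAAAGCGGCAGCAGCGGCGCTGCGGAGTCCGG
Zbtb17: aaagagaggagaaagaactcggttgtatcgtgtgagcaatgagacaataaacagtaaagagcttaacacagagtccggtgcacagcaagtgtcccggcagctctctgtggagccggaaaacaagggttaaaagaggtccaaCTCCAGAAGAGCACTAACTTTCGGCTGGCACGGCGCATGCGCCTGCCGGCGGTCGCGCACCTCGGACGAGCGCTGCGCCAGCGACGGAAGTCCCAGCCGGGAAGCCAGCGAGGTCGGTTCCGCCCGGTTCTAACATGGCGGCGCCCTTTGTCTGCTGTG
Zbtb5: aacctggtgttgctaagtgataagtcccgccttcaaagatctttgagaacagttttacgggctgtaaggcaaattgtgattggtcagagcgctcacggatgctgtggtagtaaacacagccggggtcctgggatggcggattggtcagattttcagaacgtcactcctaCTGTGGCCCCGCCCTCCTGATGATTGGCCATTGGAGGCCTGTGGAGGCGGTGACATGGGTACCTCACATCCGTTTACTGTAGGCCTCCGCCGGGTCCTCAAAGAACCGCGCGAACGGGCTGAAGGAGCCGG
Zbtb26: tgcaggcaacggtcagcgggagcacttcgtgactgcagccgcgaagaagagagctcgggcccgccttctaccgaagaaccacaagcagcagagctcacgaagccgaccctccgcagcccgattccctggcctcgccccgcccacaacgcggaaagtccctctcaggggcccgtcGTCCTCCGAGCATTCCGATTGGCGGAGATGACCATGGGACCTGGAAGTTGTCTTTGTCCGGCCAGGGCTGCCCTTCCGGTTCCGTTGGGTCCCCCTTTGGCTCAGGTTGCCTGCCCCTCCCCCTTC

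These windows were GC-rich, from 55.7% G and C at Zbtb5 to 69.0% at Zbtb38, and rich in CpG. The ratio of observed to expected CpG ran from 0.7 at Zbtb38 to 1.15 at Zbtb33, against a median of 0.61 over 17492 protein-coding genes (each gene's highest window). The printed window of Zbtb38 is not its highest, which had a ratio of 0.988. Of the 300 bases, both peaks covered 269 at Zbtb38, 159 at Zbtb17, 131 at Zbtb5, 126 at Zbtb26 and 119 at Zbtb33. At Zbtb17, which encodes the Myc partner Miz-1, the covered bases run through the start and hold the GC box GGGCGG, read on the opposite strand from position 11 after the start. The Zbtb5 window holds CCAAT, again on the opposite strand, at 4 places, and those at 59 and 52 bases before the start lie among the covered bases, as does a GC box at 73 bases before it. The Zbtb26 window has 1 covered CCAAT at 59 bases before the start, and outside the covered part a GC box and the RUNX-type word AACCACA. At Zbtb38 a GC box, on the opposite strand at 200 bases before the start, lies among the covered bases.

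None of the 5 windows held AGGTCA, the core word of nuclear receptor sites, on either strand. That word was present in 14.7% of the 21263 promoter windows of protein-coding genes and in 20.8% of the 1488 with the centre of a shared peak (95% interval 18.7 to 22.9). It was present in 6 of 49 Zbtb windows (12.2%), those of Zbtb4, Zbtb7a, Zbtb21, Zbtb25, Zbtb42 and Zbtb46. The direct repeat DR1, in which a second AGGTCA follows in the same direction after 1 base, was in 10 of all windows and in no Zbtb window. GGGCGG was in 46.2% of all windows, 69.5% of those with the centre of a shared peak and 67.3% of the Zbtb windows. CCAAT was in 38.2%, 38.3% and 30.6%, and AACCACA in 4.71%, 2.49% and 4.08%. The cAMP response element TGACGTCA was in 2.23%, 4.5% and 4.08%, and the palindromic Kaiso-type word, TCTCG followed by its reverse complement, in 0.673%, 1.55% and none. All words were searched on both strands. A match is only a description of the letters, and the windows cover only part of each peak.

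COUP-TFII peaks lay at 28 of the 40 Zbtb genes. A peak was counted for the protein-coding gene whose body was nearest to it, up to a distance of 100 kb. By this rule 25 Zbtb genes had an XX peak, 26 an XY peak and 21 a shared one. Over all protein-coding genes, 42.2% had a peak in either list, 36.9% an XX peak, 35.1% an XY peak and 28.2% a shared peak. The corresponding shares of Zbtb genes were 70.0% (95% interval 53.5 to 83.4), 62.5% (45.8 to 77.3), 65.0% (48.3 to 79.4) and 52.5% (36.1 to 68.5). The median Zbtb gene had 1 shared peak and the median protein-coding gene had 0. The 40 genes carried 32 XX and 36 XY peaks, and 26 of these were shared pairs.

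**Figure D1:**
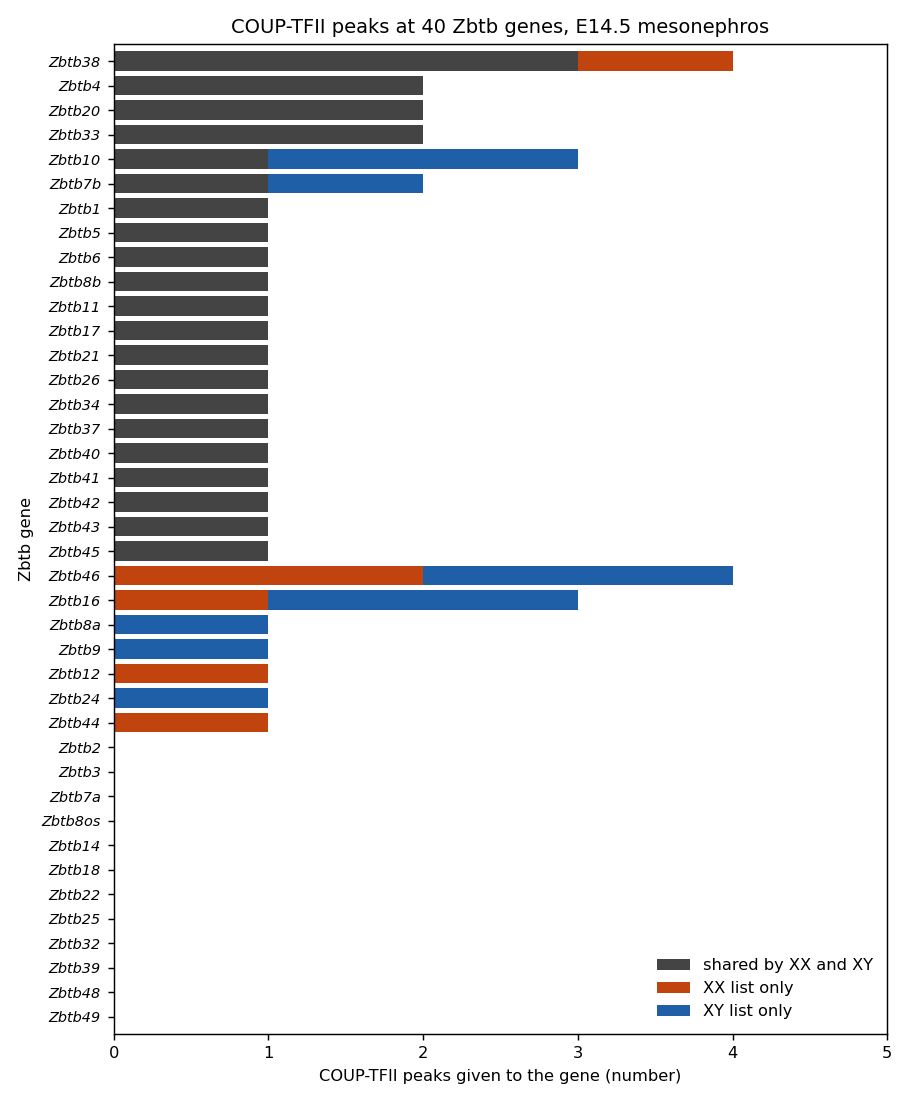
Number of COUP-TFII peaks given to each of the 40 Zbtb genes. Bars add up shared peaks (dark), XX-only peaks (orange) and XY-only peaks (blue); Zbtb38 leads with 3 shared and 1 XX-only peak, 17 genes have 1 shared peak and 12 genes have no peak.

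Promoter type differed between Zbtb genes and all protein-coding genes, while median gene length was close. Both are given beside the counts. Of the 36 Zbtb genes with a start in the promoter table, 30 (83.3%) had a CpG-rich window (ratio of at least 0.6). Of the 17492 protein-coding genes with such a start, 50.9% did. Among genes with a CpG-rich window, a shared peak was found at 16 of 30 Zbtb genes (53.3%) and at 45.2% of all. No interval was computed for this Zbtb share, and the difference was not tested. The interval of the share over all 40 Zbtb genes, 36.1 to 68.5, included 45.2%. Among genes without a CpG-rich window, a shared peak was found at 3 of 6 Zbtb genes and at 11.1% of all. Those 3 were Zbtb7b, Zbtb8b and Zbtb20, and none of their shared peaks lay within 1 kb of a listed start. For them the type of the window thus does not describe the place of the peak. Zbtb genes with and without a shared peak had median CpG ratios of 0.94 and 0.833. Zbtb gene bodies had a median length of 18.2 kb, and all protein-coding genes 17.2 kb. Between 5 and 50 kb in length, 17 of 30 Zbtb genes had a shared peak, against 29.8% of all genes of that length. Under 5 kb the count was 2 of 6 (Zbtb42 and Zbtb45), against 11.0%, and over 50 kb it was 2 of 4 (Zbtb20 and Zbtb40), against 41.9%. The part of promoter type in the family's share was not tested further.

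The 3 members known to bind methylated CpG all had at least 2 shared peaks, as did 1 other Zbtb gene, Zbtb20. The group of 3 was formed with earlier results of these data known, so no enrichment is read from it. In all, 4 of 40 Zbtb genes (95% interval 2.79% to 23.7%) and 3.70% of protein-coding genes had 2 or more. Zbtb38 (gene 245007, chromosome 9, 96682767 to 96731675, minus strand), whose product binds methylated CpG and is also called CIBZ, had 4 XX and 3 XY peaks. One shared peak, at 96719365 to 96719664 in XX, lay over an internal start, its centre 69 bp upstream. The second, at 96705562 to 96705861, lay inside the gene 13.7 kb downstream of the nearest listed start. The third, at 96669879 to 96670178, lay 12.6 kb beyond the gene's 3′ end. The XX and XY centres of these 3 peaks were 2, 19 and 5 bp apart. The XX-only peak, at 96759013 to 96759312, lay 27.3 kb upstream of the gene, and the nearest XY peak was 39.3 kb from it.

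Zbtb4 (gene 75580, chromosome 11, 69765912 to 69784026, plus strand), a Kaiso-like repressor, had 2 peaks in each list and both were shared. They stood on either side of its start. The upstream one, at 69765410 to 69765709 in XX, had its centre 353 bp before the start in XX and 292 bp before it in XY. The downstream one, at 69766327 to 69766626, was centred 564 bp after the start in XX and 596 bp after it in XY. The gene thus had a peak on each flank of its start in both sexes, and neither peak covered the start itself.

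Zbtb33 (gene 56805, chromosome X, 38189793 to 38197046, plus strand) encodes Kaiso, which also binds p120 catenin. It is the only member on the X chromosome, of which XX nuclei have an extra copy. It had 2 XX and 2 XY peaks, all shared. One covered the start, at 38189662 to 38189961 in XX and 38189724 to 38190023 in XY. The other, at 38180966 to 38181265 in XX, lay 8.53 kb upstream, and its XY partner was centred 30 bp away.

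Zbtb20 (gene 56490, chromosome 16, 42875689 to 43634392, plus strand), a repressor known from hippocampus and liver, is the longest member at 759 kb. Its 2 shared peaks lay outside the gene body on the 5′ side. The nearer one, at 42874968 to 42875267 in XX, was 422 bp from the first base of the gene, and the other, at 42781455 to 42781754, was 93.9 kb from it. The XX and XY centres were 21 and 5 bp apart. Neither peak lay in the 759 kb of the gene itself, and the start in the promoter table, at 43247284, had no peak within 1 kb.

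Most shared peaks of the family lay at a gene's start. Of the 21 members with a shared peak, 15 had one centred within 1 kb of a listed start of their own: Zbtb1, Zbtb4, Zbtb5, Zbtb6, Zbtb11, Zbtb17, Zbtb21, Zbtb26, Zbtb33, Zbtb34, Zbtb37, Zbtb38, Zbtb41, Zbtb43 and Zbtb45. Zbtb4 had 2 such peaks. In 13 of these 16 peaks (81.2%, 54.4 to 96.0) the centre lay downstream of the start, and the median centre was 91 bp downstream, with a middle range from 34.5 to 183.5 bp. For the 4160 shared peaks centred within 1 kb of a start of any protein-coding gene, 66.7% were downstream, and the median was 93 bp downstream, with a middle range from 98.25 bp upstream to 231 bp downstream. The median position was thus close to that of all genes. Of the 24 shared peaks at Zbtb genes of known strand, 15 lay within 1 kb of the 5′ end of the gene body (62.5%, 40.6 to 81.2), as did 65.1% over all genes. At the 3′ end lay 1 of 24, that of Zbtb7b, and 1.08% over all genes.

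**Figure D2:**
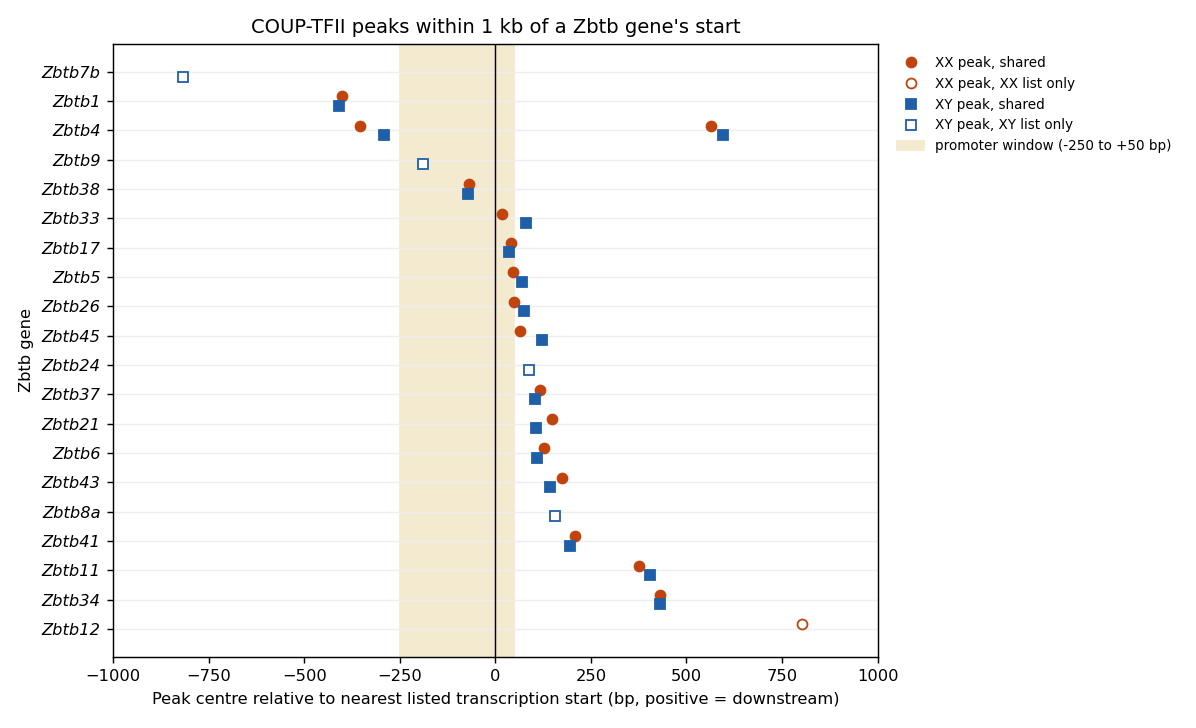
Position of COUP-TFII peak centres within 1 kb of a listed start of their own Zbtb gene, in bp with downstream positive; circles are XX and squares XY peaks, filled where shared and open where in 1 list only. Most centres sit between the start and 250 bp downstream, and those of Zbtb4 flank its start.

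Single shared peaks at starts were centred in XX at 40 bp downstream of the start of Zbtb17, 45 bp for Zbtb5, 48 bp for Zbtb26, 65 bp for Zbtb45, 117 bp for Zbtb37 and 127 bp for Zbtb6. They were centred further downstream at Zbtb21 (148 bp), Zbtb43 (175 bp), Zbtb41 (209 bp), Zbtb11 (376 bp) and Zbtb34 (431 bp). At Zbtb34 the XX and XY lists held the same interval, chromosome 2, 33430744 to 33431043. Zbtb5 is a repressor of the cell cycle inhibitor gene Cdkn1a, and Zbtb17 represses the same gene when bound to Myc. For all 26 shared pairs of the family the XX and XY centres were a median of 22.5 bp apart and at most 143 bp, and for the 7150 shared peaks given to any protein-coding gene the median was 33 bp.

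Other protein-coding genes reach some of these peaks: both Zbtb17 peaks also covered Gm42337, and the XX peak of Zbtb26 also covered Rabgap1. Several Zbtb genes are neighbours of each other. Zbtb6 and Zbtb26 lie 1248 bp apart on chromosome 2, both on the minus strand, and each had its own shared peak over its start. Zbtb34 and Zbtb43 lie 19.0 kb apart on the same chromosome and strand, and each likewise had 1 shared peak at its start. Zbtb1, needed for lymphocyte development, and Zbtb25 lie head to head on chromosome 12 and overlap by 164 bp. A single shared peak, at 76369969 to 76370268 in XX, covered this overlap. It went to Zbtb1, whose gene end was nearer, and left Zbtb25 with none. The peak centre was 402 bp upstream of the listed start of Zbtb1 and 558 bp upstream of that of Zbtb25.

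The other 6 members with a shared peak had it elsewhere or have no listed start. Zbtb40 had 1 peak at the right end of its body on chromosome 4 (137048815 to 137049114 in XX). Zbtb10, a repressor of Sp-dependent transcription, had 1 XX peak (chromosome 3, 9251426 to 9251725), whose shared XY partner lay 143 bp away, the widest spacing of any shared pair in the family. The XY list gave Zbtb10 2 more peaks, at 9249809 to 9250108, 459 bp outside the gene, and at 9347606 to 9347905, 62.3 kb outside it. Zbtb7b, which encodes ThPOK, the factor of the CD4 T cell lineage, had its shared peak near the 3′ end (89378471 to 89378770 in XX, chromosome 3) and an XY-only peak centred 816 bp upstream of a listed start. Zbtb42, a relative of Zbtb18, and Zbtb8b had a shared peak outside the gene, 10.6 kb and 19.0 kb beyond the 3′ end. These last peaks are tied to the genes by nearness alone.

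Peaks in 1 list only made up 6 of 32 XX and 10 of 36 XY peaks of the family. Over all genes and places, 67.0% of XX and 76.0% of XY peaks were shared, and at Zbtb genes 81.2% (63.6 to 92.8) and 72.2% (54.8 to 85.8) were. An XX-only peak was found at 5 Zbtb genes (12.5%) and 13.1% of all genes, and an XY-only peak at 7 (17.5%) and 9.56%. The intervals of the Zbtb shares (4.19 to 26.8 and 7.34 to 32.8) included the shares of all genes.

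Zbtb46 and Zbtb16 had peaks in both lists and none shared, a state found at 1.84% of protein-coding genes. At Zbtb46, a marker gene of classical dendritic cells, the lists agreed more closely than that count shows. The XX peaks lay at 181460174 to 181460473 and 181487662 to 181487961 on chromosome 2, and the XY peaks at 181459772 to 181460071 and 181487333 to 181487632. The gaps between their edges were 103 and 30 bp, so that both pairs lay inside the gene body within 402 and 329 bp of each other, centre to centre. With peaks within 1 kb counted as shared, the family had 4 XX-only and 8 XY-only peaks, and 22 members with a shared peak.

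At Zbtb16, by contrast, the lists differed in place. Zbtb16 encodes PLZF, known for spermatogonial stem cells, limb patterning and innate-like T cells, and spans 184 kb of chromosome 9. Its XX peak (48675270 to 48675569) and the nearer XY peak (48749469 to 48749768) lay inside the gene and 73.9 kb apart, and a second XY peak lay 24.2 kb outside it (48860447 to 48860746). No Zbtb16 peak lay within 1 kb of either end of its gene, and the XX peak lay within 1 kb of the predicted gene Gm32280.

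**Figure D3:**
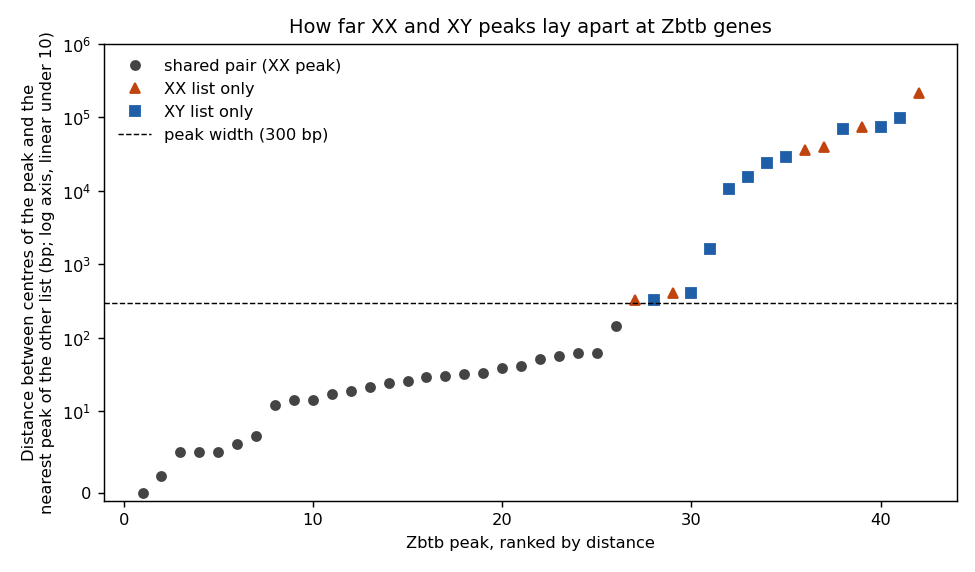
Distance in bp between the centre of each Zbtb peak and the nearest peak of the other list, ranked, on an axis that is logarithmic above 10 bp. Shared pairs (circles) lie within 143 bp, the XX-only (triangles) and XY-only (squares) peaks of Zbtb46 at 329 and 402 bp lie just past the 300 bp peak width (dashed line), and the other list-only peaks lie further away.

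The XY list alone gave a peak to Zbtb8a, Zbtb9 and Zbtb24, and the XX list alone to Zbtb12 and Zbtb44. Over all protein-coding genes, 5.25% had an XY and no XX peak, and 7.12% an XX and no XY peak. All 3 XY-only genes had the peak near the start, at 156 bp downstream for Zbtb8a, 189 bp upstream for Zbtb9 and 89 bp downstream for Zbtb24, whose human counterpart is mutated in the immunodeficiency ICF syndrome. The nearest XX peaks were 28.5, 23.4 and 68.8 kb away. The XX-only peak of Zbtb12 was centred 803 bp downstream of its start, and that of Zbtb44 lay 32.4 kb outside the gene. In the whole lists, 35.6% of XX-only and 56.6% of XY-only peaks were no further than 1 kb from an end of a protein-coding gene. At the Zbtb genes these were 2 of 6 and 5 of 10.

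The 12 members without a peak were Zbtb2, Zbtb3, Zbtb7a, Zbtb8os, Zbtb14, Zbtb18, Zbtb22, Zbtb25, Zbtb32, Zbtb39, Zbtb48 and Zbtb49. For 4 of them a shared peak lay within 1 kb of a listed start but went to an overlapping or nearer gene. At Zbtb49 the peak centre was 68 bp downstream of the start in XX (38220237 to 38220536, chromosome 5) and the peak went to Lyar. At Zbtb14, whose product is also called ZF5, it was 325 bp downstream in XX (69383980 to 69384279, chromosome 17), and the peak went to Gm49894. Zbtb25 lost its peak to Zbtb1, as described above, and the peak 792 bp upstream of the start of Zbtb8os went to Rbbp4, which encodes a histone-binding subunit of corepressor complexes. Counting any shared peak within 1 kb of a listed start, whichever gene it went to, 19 of 36 Zbtb genes had one (18 of 35 without Zbtb8os), against 26.3% of protein-coding genes.

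The other 8 had no peak within 1 kb of a start. Zbtb32, a gene of activated lymphocytes, had a shared peak 434 bp beyond its 3′ end in XX, which went to Kmt2b. The nearest XX peak was 5.76 kb from Zbtb7a, which encodes LRF, a regulator of red cell and lymphoid development, and 6.69 kb from Zbtb22. It was 10.7 kb from Zbtb48, whose product TZAP binds telomeres, 15.0 kb from Zbtb3, 20.0 kb from Zbtb2 and 62.2 kb from Zbtb39. Zbtb18, which encodes the neuronal repressor RP58, was the most remote, with the nearest peak 134 kb away in XX and 185 kb away in XY. Among the 7 members grouped by their role in lymphoid and blood lineages, 3 had a shared peak (Zbtb1, Zbtb7b and Zbtb17; 95% interval 9.9% to 81.6%), 2 had list-only peaks and no shared one (Zbtb16 and Zbtb46) and 2 had none (Zbtb7a and Zbtb32). Of the 25 members outside the 4 role groups, 13 had a shared peak (31.3% to 72.2%), and in the genome maintenance group 1 of 3 did (Zbtb40, 0.84% to 90.6%). In the group of nervous system or metabolic tissue 1 of 2 did (Zbtb20, 1.26% to 98.7%). The share over all protein-coding genes was 28.2%. It lies inside the wide intervals of the blood lineage, genome maintenance and nervous system or metabolic tissue groups. All role groups were formed with earlier results of these data known, and none was tested against this share.

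Related families were described in the same way. C2H2 zinc finger genes with Zfp symbols, many of which pair the fingers with a KRAB domain in place of BTB, had a shared peak at 174 of 397 genes (43.8%, 38.9 to 48.9). BTB genes without zinc fingers had one at 13 of 37 Klhl genes (35.1%, 20.2 to 52.5) and 7 of 22 Kctd genes (31.8%, 13.9 to 54.9). The interval of the Zbtb share, 36.1 to 68.5, overlapped that of each of these families, and no difference between the families was tested. Of the genes with a promoter window, it was CpG-rich in 186 of 331 Zfp (56.2%), 19 of 31 Klhl (61.3%) and 13 of 14 Kctd genes (92.9%). Zfp827 led the Zfp genes with 3 shared peaks, followed by Zfp148, Zfp266 and Zfp341 with 2, and Kctd15 led the Kctd genes with 2. Of 7 further BTB zinc finger genes under other symbols, Gzf1, Hic2, Patz1 and Zfp131 each had 1 XX and 1 XY peak that were shared, and Bcl6, Bcl6b and Hic1 had none.

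Among genes for corepressors that BTB zinc finger or nuclear receptor repressors recruit, 19 of 30 had a shared peak (63.3%, 43.9 to 80.1). Their median gene length was 54.3 kb, longer than that of the Zbtb genes. Gatad2a, of the NuRD complex, had 3 shared peaks, the demethylase gene Kdm1a and the NCoR complex gene Tbl1x had 2, and the Bcl6 corepressor gene Bcor had 1 shared among 3 XX peaks. Of 11 genes listed for DNA methylation, 8 had a shared peak (72.7%, 39.0 to 94.0). The 4 named by the rule for comparison lists were Mbd2 with 3 shared peaks and Dnmt1, Dnmt3a and Hells with 1 each. The median length of the 11 genes was 38.3 kb, and Mbd3 is in both lists. Both lists were read only against the 28.2% of all protein-coding genes, without matching for length or promoter type. Among all protein-coding genes over 50 kb, 41.9% had a shared peak.

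**Figure D4:**
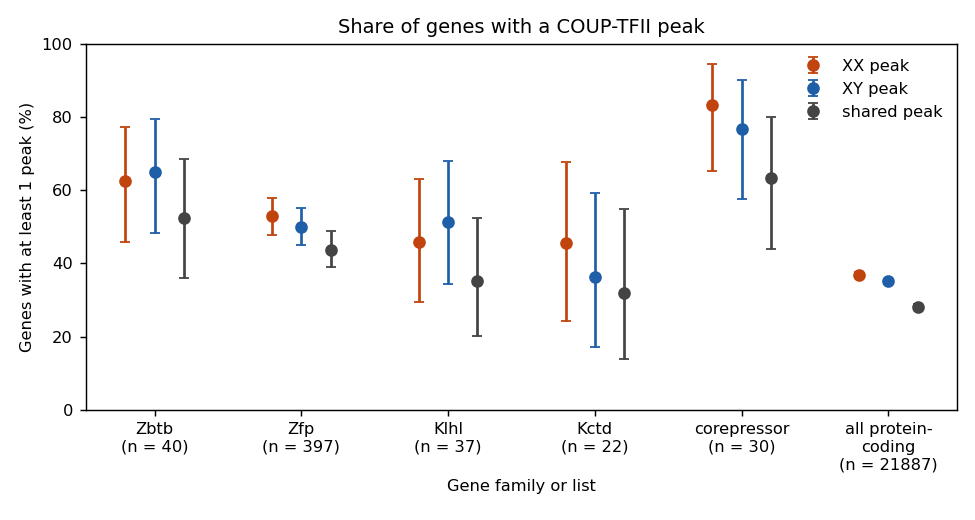
Percent of genes with at least 1 XX peak, XY peak or shared peak in the Zbtb family, the Zfp, Klhl and Kctd families, the corepressor list and all protein-coding genes; points are shares and bars exact 95% intervals that cover counting error only. The Zbtb shares of 62.5%, 65.0% and 52.5% lie above those of all genes, with wide bars. Promoter type is not matched between the sets.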

How the data were processed

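Per the labels, COUP-TFII ChIP-seq was done on E14.5 XX and XY mesonephroi, with pooled input. The protocol text also names RUNX1 and fetal ovaries, while titles, tissue and antibody name COUP-TFII and mesonephroi, which were followed. The submitters' processing notes name mm10 and the tools HOMER 4.10.3, bedtools 2.24.0, Bowtie 1.2, cutadapt and Picard, with no role for any. How replicates were joined, and at which threshold peaks were called, is not given in the sources used here. Deposited lists hold positions only, so no test was run and counts stand beside those of all protein-coding genes.

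Genes came from a RefSeq table of GRCm38.p6. As a check of the build, 52.9% of XX peaks had a gene end no more than 500 bp away, and 8.09% or fewer did after shifts of 2 to 100 kb. Exons and introns were not used here. Starts, strands and windows came from a RefSeq promoter table, which held 36 of the 40 members; Zbtb10, Zbtb16, Zbtb40 and Zbtb48 were not matched. The plan also foresaw a check of zinc fingers in protein sequences, which was not done here. Assignment and overlap (Python 3.11.15, pandas 2.3.3, numpy 2.4.6, scipy 1.17.1) were checked on simulated peaks and with bedtools 2.31.1. For all 10452 XX and 9386 XY peaks given to a gene, that gene was among the nearest by bedtools. The choice between equally near genes was not checked. Coordinates count from 1.

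The members, lists and tests were chosen with earlier results of these data known. Every member with a peak is named, positions are given in full for members with 2 or more shared or list-only peaks and for others as examples, and up to 4 genes with most shared peaks are named from each comparison list. Alternatives were other distances, gene ends, starts, competing genes, overlap rules and a CpG-rich background.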

Additional observations from a re-analysis of the deposited data

How the results depend on the processing

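The number of members with a shared peak, 21, ran from 16 (when noncoding RefSeq genes also competed for peaks) to 23 (nearest listed start) over the alternatives tried. The number with an XX peak, 25, ran from 18 to 26, and with an XY peak, 26, from 20 to 26, lowest when only peaks within 1 kb of the gene's own ends counted. The share over all protein-coding genes was not recomputed for other distances, gene ends, nearest listed starts, competing genes or overlap rules. These counts therefore have no matching background and cannot be set beside the shares of the main rule. XX-only peaks of members numbered 4 to 7 and XY-only peaks 8 to 11 under the other overlap rules. Within 1 kb of a coding gene end lay 62.5% of member peaks in XX and 61.1% in XY. Over the alternatives these shares were at most 68.8% and 66.7%, with noncoding gene ends added. Over all peaks the shares under the main rule were 54.1% in XX and 61.7% in XY. Both lay inside the intervals of the member shares, 43.7 to 78.9 in XX and 43.5 to 76.9 in XY. The background moved most: among genes with a CpG-rich promoter window, 56.9% had an XX peak, 55.6% an XY peak and 45.2% a shared peak. Each of these lay inside the interval of the matching share over all 40 Zbtb genes. The alternatives without Zbtb8os, with any peak near a start, and 4 for shared peaks (500 kb, nearest listed start, all genes competing, own gene ends) were chosen after seeing the data. A stricter peak threshold and leaving out a replicate were not possible on lists without scores. No paired analysis was possible because each list stands for both replicates of a sex. Depth is unknown, so a missing peak does not show that a site was unbound.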
